A study of Mus musculus with 12 samples.

Results

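The genes described here are 10 regulators of limb muscle progenitors, of 18194 genes named on the arrays: Pax3, Pax7, Lbx1, Met, Hgf, Myf5, Myod1, Myog, Mef2c and Cxcr4. They were followed through every probe set annotated to exactly 1 of these symbols on the Affymetrix MOE430 arrays, 17 of 22690 on the A array, which covers all 10 genes, and 5 of 22575 on the B array, which covers 5, or 22 of 45265 in all. The tissue was the autopod, the part of the limb that forms hand or foot, of wild-type mice at E12.5, the middle of gestation. Forelimb samples 11, 13 and 25 and hindlimb samples 12, 14 and 26 were each run on both array types, 12 arrays in all. No other genotype, treatment or age was included, and the labels give no strain and do not say whether a sample was 1 embryo or a pool. For sample 11 on the A array the limb was read from a letter of its title only. Signals below are MAS5.0 signals scaled to a trimmed mean of 500 on each array, and a probe set was tested if its scaled signal reached 100 on at least 3 of 6 arrays. Differences are log2 hindlimb minus forelimb of (signal + 32), given ± SE with n = 3 samples per limb, and the p-values rest on the scatter among these samples, which may be technical.

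Limb muscle does not arise in the limb itself. Its progenitors leave the somites under the control of Pax3, detach through the receptor Met and its ligand Hgf, and migrate into the bud with the help of Lbx1 and of the chemokine receptor Cxcr4. There they turn on the myogenic basic helix-loop-helix factors Myf5 and Myod1, then Myog, which with Mef2c drives the genes of differentiated muscle. Pax7 marks a later progenitor pool. Several of these genes are also known from other cells: Hgf from mesenchyme, Met from epithelia and nerves, Cxcr4 and Mef2c from endothelium, Mef2c from cartilage and Pax3 from neural crest.

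No member differed between the limbs past the threshold. By limma with Benjamini-Hochberg adjustment over all tested probe sets, the A array gave 0 of 12 tested member probe sets with an adjusted p under 0.05 and the B array 0 of 3, where 0.0326% and 0.0117% of all tested probe sets had one. At an unadjusted p under 0.05 there were 3 of 12 on the A array, all of Mef2c and lower in hindlimb, and 2 of 3 on the B array, Met and Hgf, both higher in hindlimb, against 5.54% of all tested probe sets on either array. In those directions the shares of all probe sets were 3.69% (lower, A) and 2.33% (higher, B). The 5 Mef2c probe sets read 1 gene and are not independent. The 15 tested probe sets covered 7 genes; Pax3, Pax7 and Myf5 were below the filter on each of their probe sets. The median difference of the tested members was -0.26 on the A array, where that of all tested probe sets was -0.01, and 0.57 on the B array, against -0.01. Mef2c weighs on the A median, with 5 of the 12 probe sets, at -0.58 to -0.51. The other tested A probe sets lay on both sides of 0, from -0.30 (Myog) to 0.29 (Hgf 1451866_a_at). Over all members with no filter, 14 of 17 differences were negative on the A array, the 5 of Mef2c among them, and 3 of 5 were so on B. Among all tested probe sets 52.2% were negative on either array. In bulk tissue, fewer cells of a type and less RNA per cell cannot be told apart.

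**Figure D1:**
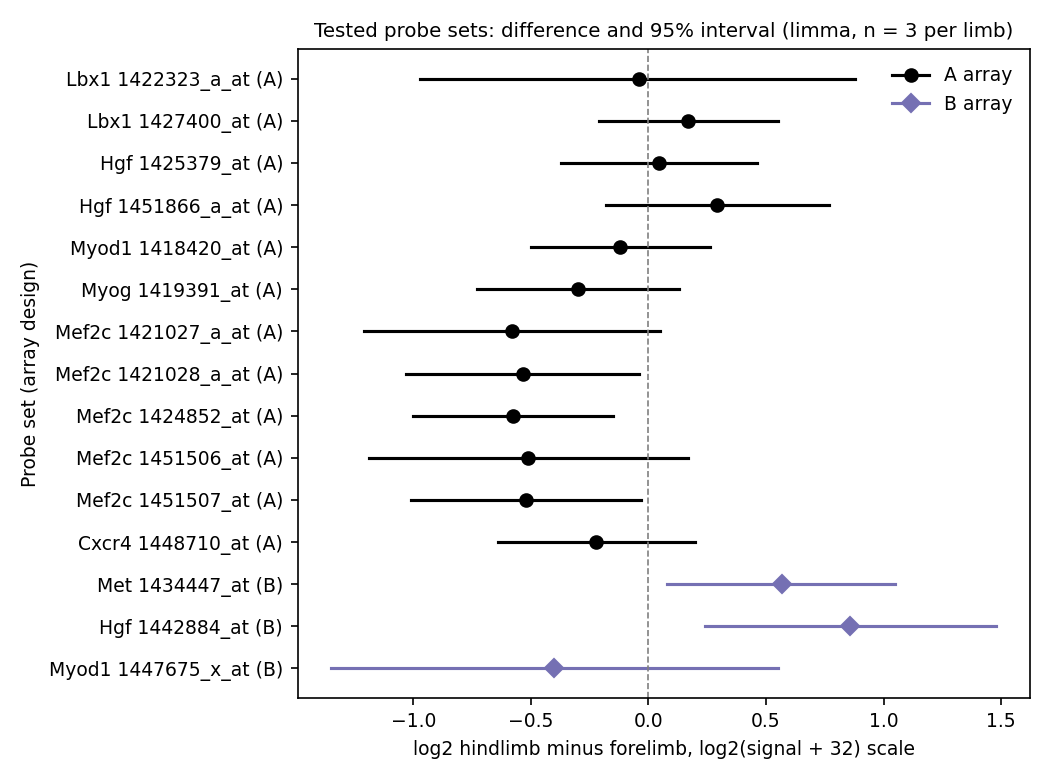
Difference between hindlimb and forelimb (x axis, log2 of signal + 32) for each of the 15 tested probe sets (y axis), with limma's 95% interval as a bar; circles are A array and diamonds B array probe sets. The 5 Mef2c probe sets lie between -0.58 and -0.51, and Met and Hgf on the B array at 0.57 and 0.86; none passed after adjustment.

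The ligand Hgf and its receptor Met, the signal that lets progenitors detach and migrate, both stood higher in hindlimb on the B array without passing the threshold. The Hgf probe set 1442884_at had signals of 171, 293 and 249 in forelimb 11, 13 and 25, and of 482, 602 and 306 in hindlimb 12, 14 and 26. All hindlimb samples lay above all forelimb samples, hindlimb 26 only just. Scaling had raised B signals by a factor of 7.14, and with values as deposited this probe set was under the filter of 100. The difference was 0.86 ± 0.28 (95% interval 0.24 to 1.48, limma adjusted p = 0.853). On this design 1 of the 3 tested members had limbs that did not overlap, against 10.9% of all tested probe sets (hindlimb above, 4.81%; forelimb above, 6.14%). The Hgf probe sets of the A array differed less: 1451866_a_at gave 0.29 ± 0.22 and 1425379_at 0.04 ± 0.19, with signals between 68.1 and 130 and overlapping limbs on both. Only 3 of 6 arrays reached a signal of 100 on each of these. All 3 Hgf differences were positive, although 1425379_at turned to -0.011 when arrays were weighted by quality.

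For Met, the B probe set 1434447_at read 576, 540 and 1000 in forelimb 11, 13 and 25, and 923, 1127 and 1020 in hindlimb 12, 14 and 26. Forelimb 25 lay among the hindlimb samples, and the other forelimb samples were well below them. The difference was 0.57 ± 0.22 (interval 0.08 to 1.05, limma adjusted p = 0.894), and it was 0.83 without forelimb 25. The A probe set, 1422990_at, was under the filter, with signals of 76.4 in forelimb 11 and 82.3 in hindlimb 26 against 17.3 to 37.0 in the other samples, and its difference of -0.15 went the other way (exact two-sided permutation p = 0.7). Markers of the surface ectoderm, an epithelium, had lower summed signals in every hindlimb sample on the A array (6 of 6 genes tested, 3625 to 4826 in forelimb against 2862 to 3420), while over 2 genes on B the limbs overlapped. The keratins carried this (Krt15 -1.38, Krt14 -0.83, Krt5 -0.40), and Epcam, Cdh1 and Trp63 had -0.01, 0.01 and 0.09 with overlapping limbs. Their part in the Met values was not tested.

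The promoters of this ligand and receptor pair are shown because both stood higher in hindlimb on 1 design. They are RefSeq windows on GRCm38.p6, from 250 bases before to 50 bases after the gene start, 5′ to 3′, with capitals marking each E-box (CANNTG, the site class of the myogenic factors, searched on both strands). The Hgf window is chr5:16553245-16553544 on the plus strand and the Met window chr6:17463707-17464006 on the plus strand.
Hgf: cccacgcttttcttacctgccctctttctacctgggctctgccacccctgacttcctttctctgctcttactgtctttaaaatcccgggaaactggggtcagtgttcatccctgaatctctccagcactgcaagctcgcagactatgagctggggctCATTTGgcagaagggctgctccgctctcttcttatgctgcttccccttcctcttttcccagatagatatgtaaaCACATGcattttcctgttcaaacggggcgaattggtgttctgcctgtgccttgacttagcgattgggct
Met: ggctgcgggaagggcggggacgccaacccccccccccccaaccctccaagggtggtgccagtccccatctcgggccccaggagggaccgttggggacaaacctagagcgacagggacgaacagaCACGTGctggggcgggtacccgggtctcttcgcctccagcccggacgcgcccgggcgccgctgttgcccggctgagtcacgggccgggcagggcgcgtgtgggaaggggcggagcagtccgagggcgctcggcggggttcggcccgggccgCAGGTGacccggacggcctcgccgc
Each window holds 2 E-boxes. Of all 32851 promoter windows 72.3% hold at least 1 and 17.6% hold 3 or more, and the share with at least 2 was not counted. A second Hgf window had none. The match is a description of letters and no evidence of binding.

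Cxcr4, the receptor that guides migrating progenitors, had 1 probe set, 1448710_at. Its signals were 128, 109.3 and 117 in forelimb 11, 13 and 25, and 108.0, 76.1 and 108.0 in hindlimb 12, 14 and 26. The limbs did not overlap, but the lowest forelimb sample and the highest hindlimb samples were 109.3 and 108.0, and hindlimb 14 alone was clearly lower. The difference was -0.22 ± 0.19 (interval -0.64 to 0.20, limma adjusted p = 0.969), and -0.10 without hindlimb 14. Its ligand Cxcl12 went the same way on the brightest A probe set (-0.52 ± 0.13, adjusted p = 0.456). Its forelimb signals were 580 to 657 and its hindlimb signals 392 to 453. The other Cxcl12 probe sets gave -0.15 (A array) and -0.17 (B array), both with overlapping limbs. Endothelial markers, known from cells that also carry Cxcr4, summed over 7 of 8 tested genes to 2363 to 2571 in forelimb and 2339 to 2453 in hindlimb. Leukocyte markers (4 of 7 tested) summed to 1150 to 1300 and 1063 to 1318. Both ranges overlapped between the limbs, and Ptprc, the defining leukocyte marker, was below the filter.

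The progenitor factors were dim. Pax3, the paired-box factor that sets up migrating progenitors, read 48.3, 68.3 and 74.1 in forelimb 11, 13 and 25 and 42.6, 74.7 and 45.8 in hindlimb 12, 14 and 26 on 1420389_at. The limbs were intermingled, with a difference of -0.15 (exact p = 0.5). Its second A probe set, 1430335_a_at, ran from 37.0 to 74.8 in forelimb and from 13.3 to 70.6 in hindlimb (difference -0.22, exact p = 0.7). On both, hindlimb 14 was the highest hindlimb sample. The Pax3 probe set on the B array read 151 and 118 in forelimb 11 and 13 but 17.1 in forelimb 25, and 17.1 to 83.6 in hindlimb. Pax7, the paired-box factor of the later progenitor pool, ran from 54.0 to 119 in forelimb and from 37.1 to 80.8 in hindlimb on the A array (difference -0.41, exact p = 0.3), and from 12.1 to 32.9 over the 6 samples on the B array. None of these 5 probe sets was tested by limma, and 3 against 3 samples cannot give an exact p below 0.1.

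Neural crest and Schwann precursor markers were read beside Pax3, which neural crest also uses. Only 3 of the 5 on the A array were tested (Sox10, Erbb3 and Ngfr), and their sum was 1112 to 1198 in forelimb and 798 to 1087 in hindlimb, without overlap. Ngfr carried this, with a difference of -0.72, while Sox10, the defining factor of that lineage, had 0.00. Its part in the Pax3 values was not tested.

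Lbx1, the homeobox factor of migrating limb progenitors, gave patterns that did not match between its 2 probe sets. On 1427400_at the signals were 148, 125 and 169 in forelimb 11, 13 and 25 and 182, 178 and 147 in hindlimb 12, 14 and 26. Hindlimb 12 and 14 were highest and hindlimb 26 lay within the forelimb range, with a difference of 0.17 ± 0.17 (interval -0.21 to 0.55, limma adjusted p = 0.972). On 1422323_a_at the signals were 34.6, 149 and 105 in forelimb and 68.6, 174 and 41.3 in hindlimb. There forelimb 13 and hindlimb 14 were high, samples 11, 12 and 26 were low, and the highest sample was 5.02 times the lowest. Its difference was -0.04 ± 0.42 (interval -0.97 to 0.88, adjusted p = 0.999). On the fold scale the interval runs from 0.51 to 1.84.

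Of the determination factors, Myf5, the first myogenic helix-loop-helix factor expressed in the embryo, stayed at low signals of 27.6 to 39.1 in all 6 samples. It was below the filter, with a difference of -0.08 (exact p = 0.4). Myod1, which commits cells to the muscle fate, read 189, 168 and 193 in forelimb 11, 13 and 25 and 182, 189 and 132 in hindlimb 12, 14 and 26 on 1418420_at. Hindlimb 26 alone was low, and the other 5 samples lay close together. The difference was -0.12 ± 0.17 (interval -0.50 to 0.26, limma adjusted p = 0.986). The B probe set of Myod1, 1447675_x_at, whose name marks probes that may also read other transcripts, had 99.3 to 120 in forelimb. In hindlimb 14 it had 115, and in hindlimb 12 and 26 it had 55.7 and 69.3 (difference -0.40 ± 0.43, adjusted p = 0.943). Hindlimb 26 was thus low on both Myod1 probe sets, and hindlimb 12 on 1.

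Myog, the factor needed for progenitors to fuse and differentiate, read 193, 166 and 164 in forelimb 11, 13 and 25 and 97.5, 163 and 153 in hindlimb 12, 14 and 26. The limbs did not overlap, although forelimb 25 (163.5) and hindlimb 14 (162.5) were almost equal, and hindlimb 12 stood apart from the rest. The difference was -0.30 ± 0.19 (interval -0.73 to 0.13, limma adjusted p = 0.955), and -0.12 without hindlimb 12. Myog and Cxcr4 were the 2 of 12 tested members on the A array with limbs that did not overlap, where 11% of all tested probe sets had such limbs (forelimb above, 6.1%; hindlimb above, 4.94%).

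The Myog promoter is shown because it is the textbook target of the myogenic factors and of Mef2c. It is the RefSeq window chr1:134289754-134290053 of GRCm38.p6 on the plus strand, with E-boxes in capitals.
Myog: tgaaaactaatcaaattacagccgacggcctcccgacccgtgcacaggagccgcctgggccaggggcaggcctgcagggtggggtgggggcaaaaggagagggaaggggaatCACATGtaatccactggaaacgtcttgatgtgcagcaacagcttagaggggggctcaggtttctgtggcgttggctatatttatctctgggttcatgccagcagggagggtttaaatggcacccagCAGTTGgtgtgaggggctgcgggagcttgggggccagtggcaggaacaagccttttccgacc
The E-boxes start 138 and 12 bases before the gene start. The first Mef2c window also held 2 E-boxes, those of Pax7, Myf5 and Cxcr4 held 0, and the E-box form CAGCTG was in none of the members' 10 windows, against 16.3% of all windows. The MEF2 box, searched as YTAWWWWTAR (Y is C or T, W is A or T, R is A or G), was found in 0 of these 10 and in 3.19% of all windows. The Myog window holds CTATATTTAT, which departs from that form in its last letter only. The count of 0 thus does not show that a MEF2 site is absent.

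**Figure D2:**
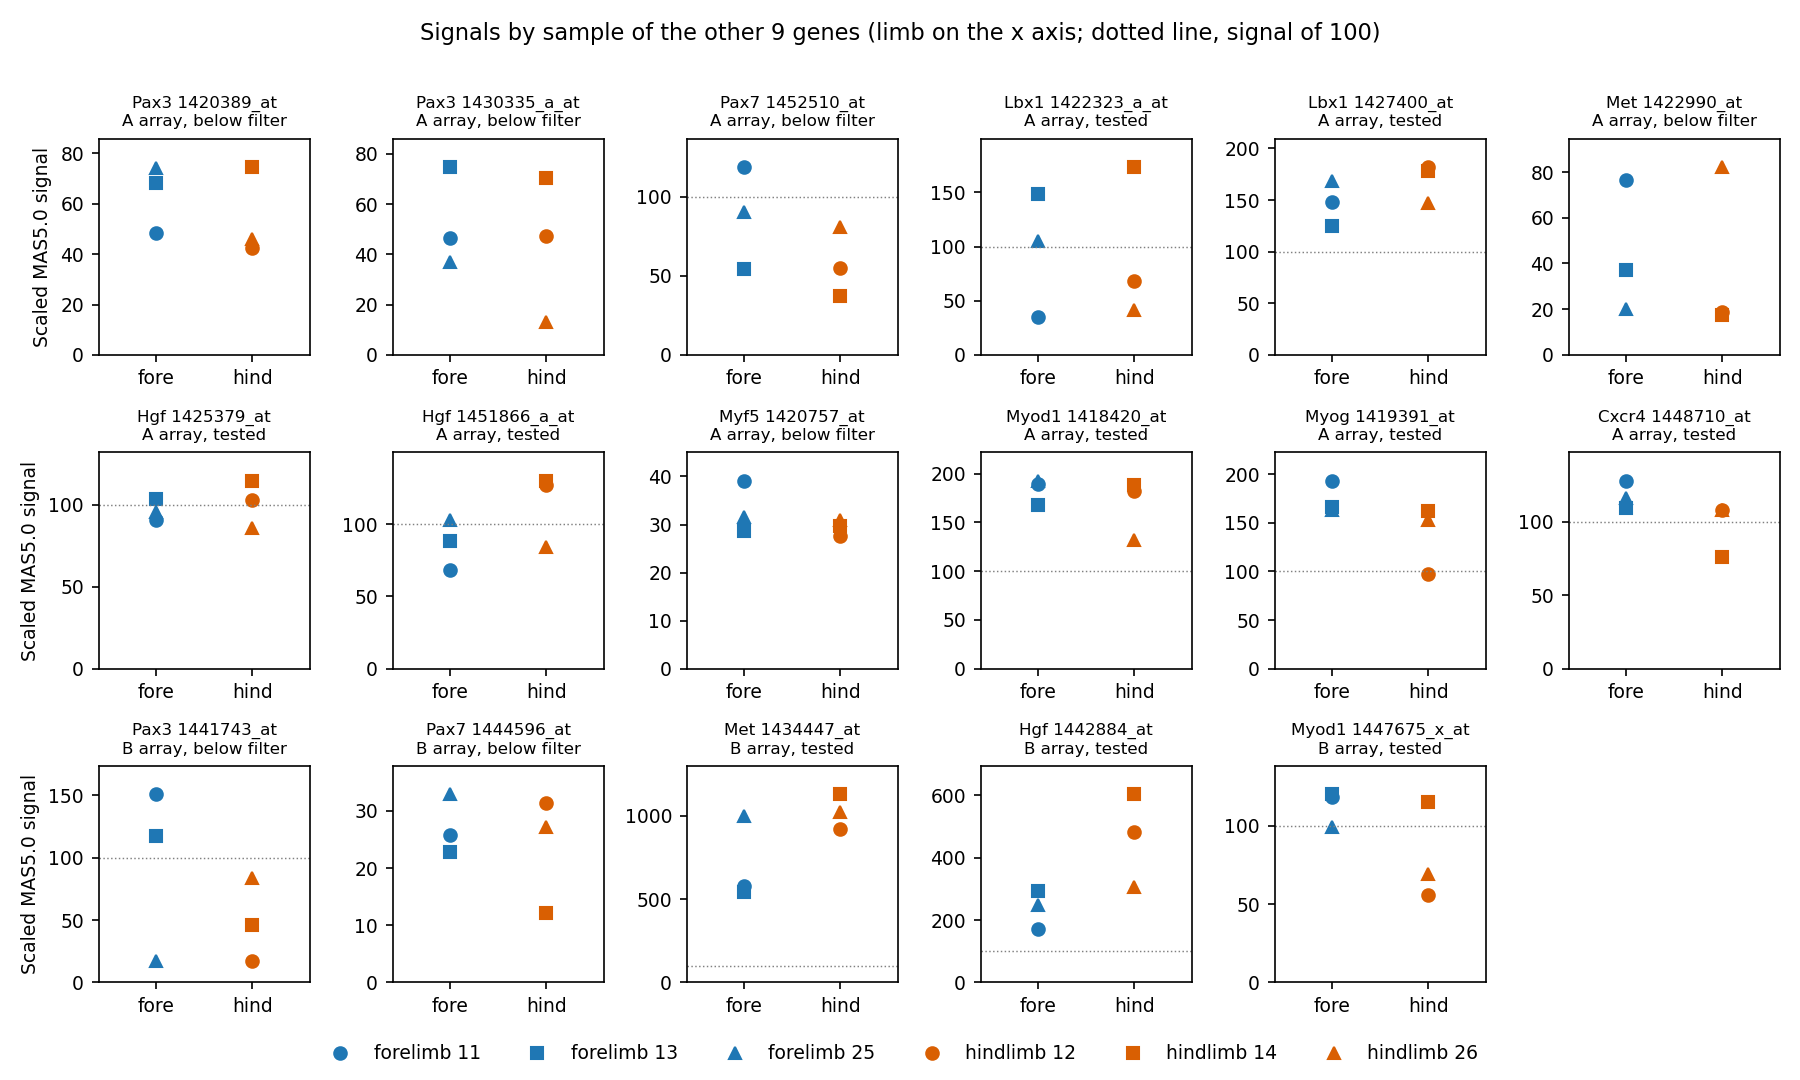
Scaled MAS5.0 signal (y axis, linear, from 0) of each sample by limb (x axis) for the 17 probe sets of the 9 genes other than Mef2c; colours mark limbs, symbols mark sample numbers and the dotted line a signal of 100. Hgf on the B array is the panel with all hindlimb samples above the forelimb samples, and Myog and Cxcr4 show forelimb above by a narrow margin.

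Mef2c, a MADS-box factor that works with the myogenic factors, was read by 5 probe sets. All 5 of its probe sets on the A array were lower in hindlimb, by -0.58 to -0.51, and none passed the threshold (limma adjusted p of 0.669 to 0.952). On 1424852_at the signals were 854, 888 and 633 in forelimb 11, 13 and 25 and 691, 446 and 441 in hindlimb 12, 14 and 26. Hindlimb 12 lay within the forelimb range, and hindlimb 14 and 26 were below every forelimb sample. The difference was -0.58 ± 0.19 (interval -1.0 to -0.15, adjusted p = 0.669).

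The other Mef2c probe sets repeated this order in part. On 1421027_a_at forelimb 11 had 863, the other forelimb samples 445 and 383, and the hindlimb samples 491, 257 and 320 (-0.58 ± 0.29, adjusted p = 0.940). On 1421028_a_at the forelimb samples had 666, 388 and 403, and the hindlimb samples 421, 287 and 258 (-0.53 ± 0.22). On 1451506_at hindlimb 12 had the highest signal of all samples, 593, against 399 to 507 in forelimb and 185 and 274 in hindlimb 14 and 26 (-0.51 ± 0.31). On 1451507_at the forelimb samples ran from 146 to 284 and the hindlimb samples from 123 to 167 (-0.52 ± 0.22). Hindlimb 12 was the highest hindlimb sample on 5 of 5 probe sets and forelimb 11 the highest forelimb sample on 4 of 5. Limbs overlapped on all 5 with 6 samples, and on 1 of 5 without hindlimb 12, where the differences ran from -0.94 on 1451506_at to -0.61 on 1451507_at (lowest adjusted p = 0.231). Without forelimb 11 the difference on 1421027_a_at was -0.24, and without hindlimb 14 that on 1451506_at was -0.17.

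Markers of other cells that use Mef2c were read beside it. The endothelial sums given above overlapped between the limbs, and the 7 tested endothelial genes had a median difference of -0.01. Of 5 tested cartilage genes 4 were negative, with a median of -0.43. The proteoglycan gene Acan had -0.72, the collagen genes Col2a1 and Col11a2 -0.61 and -0.43, and Sox9 -0.31. Col9a1 went the other way, at 0.19 with overlapping limbs. The sum of these 5 genes was 8206 to 9682 in forelimb and 7190 to 9379 in hindlimb, so the limbs overlapped. Hindlimb 12 was the lowest sample in that sum, in which Col9a1 and Col2a1 have the largest signals. It was the lowest of all samples for Col2a1 (1373) and Sox9 (769) and the lowest hindlimb sample for Col9a1 (4651). For Col11a2 (246) it was the highest hindlimb sample, as for Acan (151.0), where hindlimb 26 was almost equal (150.8). The log2 ratio of 3′ to 5′ Gapdh signal, a sign of RNA quality, was -0.24 to -0.08 in forelimb and -0.30 to -0.26 in hindlimb on the A array. The part of cartilage and of RNA quality in the Mef2c, Myog and Cxcr4 values was not tested.

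**Figure D3:**
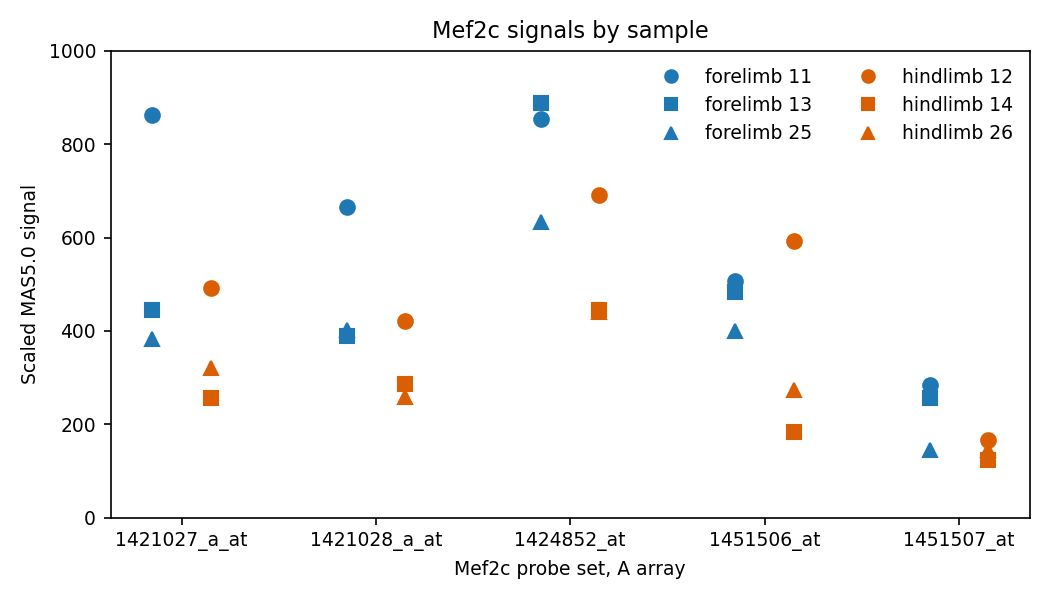
Scaled MAS5.0 signal (y axis, linear, from 0) of the 5 Mef2c probe sets of the A array (x axis) in each sample; blue is forelimb, orange hindlimb, and symbols mark sample numbers. Hindlimb 12 (orange circles) is the highest hindlimb sample on each probe set and hindlimb 14 and 26 lie lowest on 4 of 5.

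Other genes of the myogenic pathway were taken from a list of 35, of which 31 were on the A array and 21 were tested. None passed the threshold (0 higher, 0 lower; at an unadjusted p under 0.05, 0 and 2), with 14 negative and 7 positive differences and a median of -0.10. The lowest p values among negative differences belonged to Spry1, a feedback inhibitor of FGF signalling (-0.55 ± 0.14, limma adjusted p = 0.498), to Cxcl12 given above and to Cdh15, the cadherin of muscle cells (-0.38 ± 0.22, and -0.17 without hindlimb 12). Among positive differences they belonged to Tcf12, an E-protein partner of the myogenic factors (0.23 ± 0.11, with -0.03 and overlapping limbs on its other A probe set), the cell cycle inhibitor Cdkn1c (0.21 ± 0.10) and the homeobox factor Six4 (0.26 ± 0.15). Myf6, the fourth myogenic factor, Eya2, Msc, Tcf21, Mef2b, Dmrt2, Itga7, Mymk, Hgfac and Hpn were below the filter.

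On the B array 9 genes of that list were tested, 5 positive and 4 negative, with a median of 0.17. Again 0 passed, and 3 were higher and 1 lower at an unadjusted p under 0.05. The 3 are Eya coactivators and a homeobox partner of them, which act upstream of the myogenic factors. Eya1 read 574 to 644 in forelimb samples and 781 to 1101 in hindlimb samples (0.65 ± 0.17, limma adjusted p = 0.775). Six4 read 956 to 1116 in forelimb samples and 1234 to 1621 in hindlimb samples (0.46 ± 0.15, adjusted p = 0.853), and its second B probe set gave 0.55, also without overlap. Eya4 gave 0.50 ± 0.19 with overlapping limbs. Other probe sets did not share this for the Eya genes: Eya1 had 0.01 on the A array and -0.13 on a dimmer B probe set, and Eya4 had 0.00 on the A array and -0.13 and -0.17 on the B array. Megf10, a receptor of muscle progenitors, was the negative one (-0.52 ± 0.22, adjusted p = 0.894).

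Differentiated muscle genes give the readout downstream of Myog and Mef2c. Of 20 such genes on the A array 10 were tested, and all 10 had negative differences (median -0.20). Of all tested probe sets there 52.2% were negative, as were all 6 autopod mesenchyme markers (median -0.105). Of the 10 muscle genes 0 passed the threshold and 0 had an unadjusted p under 0.05 by limma. The 3 of smallest p were cardiac alpha actin Actc1 (-0.40 ± 0.19, limma adjusted p = 0.923), the acetylcholine receptor subunit Chrna1 (-0.38 ± 0.23) and the troponin Tnnc1 (-0.33 ± 0.21). Actc1 read 935, 585 and 602 in forelimb 11, 13 and 25 and 425, 595 and 543 in hindlimb 12, 14 and 26. Forelimb 11 was high and hindlimb 12 low, and the other 4 samples lay between 543 and 602. Without forelimb 11 the difference was -0.19 for Actc1 and -0.09 for Tnnc1. The same held for the list: forelimb 11 was the highest sample on 6 of 10 genes and hindlimb 12 the lowest on 6 of 10. The summed signal was 2507 in forelimb 11, 1377 in hindlimb 12 and 1665 to 1841 in the other 4 samples. Without forelimb 11, 7 of 10 differences were negative, with a median of -0.11. The other 10 genes, among them the embryonic myosin Myh3 and the troponin Tnni1, were below the filter. On the B array 3 genes were tested, with Tnnt2 at -1.05 ± 0.46 (limma adjusted p = 0.894), Ttn at 0.21 and Ckm at 0.12. Tnnt2 read 309 to 406 in forelimb, 231 and 265 in hindlimb 12 and 14 and 43.6 in hindlimb 26, without which the difference was -0.42. Other Ttn probe sets there gave -0.45 and 0.83, so the gene had no single direction.

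**Figure D4:**
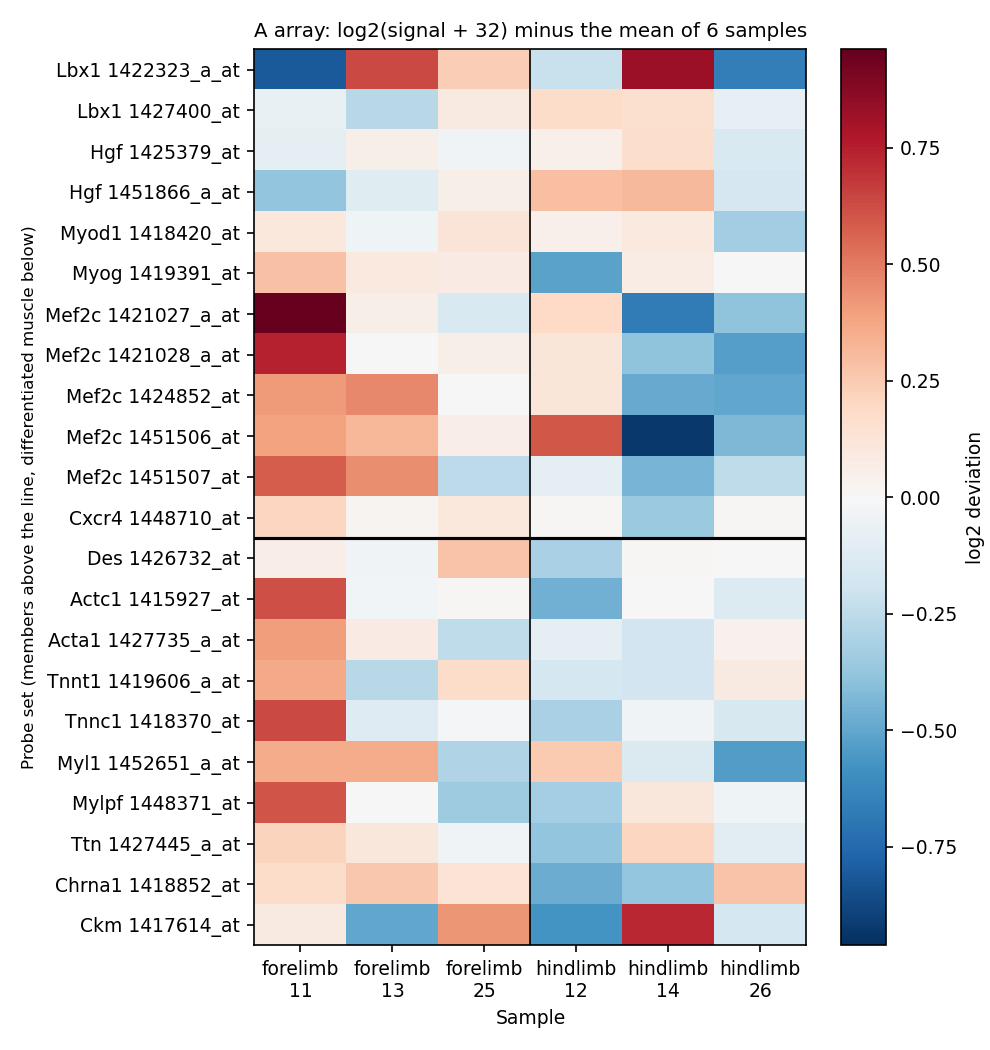
Deviation of log2(signal + 32) from the mean of the 6 samples (colour) for the 12 tested member probe sets of the A array (above the line) and the 10 tested differentiated muscle genes (below it), by sample (x axis). Forelimb 11 is high and hindlimb 12 low on most muscle genes and on Myog, while hindlimb 12 is high on Mef2c 1451506_at.

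Genes whose pattern over the 6 samples was most like that of a member were sought by Pearson r among the named probe sets tested on the same array, as a description with n = 6 samples that share limb and array. Nearest to Mef2c 1424852_at were Aldh1a2, a retinoic acid synthesis enzyme, Ube2j1, the guidance ligand Slit2, Ank and Mtmr10, with r of 0.979 to 0.986. Nearest to Myog were Ids, Jmjd6, Id1, an inhibitor of the myogenic factors, Tmsb10 and Eola1 (0.978 to 0.990). Nearest to Myod1 were Cavin2, Fbxw2, Mxd3, Fgf23 and Npnt (0.972 to 0.994), and nearest to Lbx1 1427400_at were Fam216a, Rnf7, Rpl35, Nsmf and Slc30a4 (0.985 to 0.999). On the B array the genes nearest to Myod1 were Enho, Agxt2, Ebf1, Ppm1l and Ubn2. Among the 50 nearest genes of each of these 5 probe sets, 0 were in the differentiated muscle list. Each was compared with 14106 to 14110 probe sets on the A array, 11 of them of muscle genes, and with 11388 on the B array, 5 of them of muscle genes. With so few, 0 is also the likely count for unrelated patterns, so it does not show that members and muscle genes differ. The probe set at rank 50 still had 0.906 to 0.946.

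The labelled tissue was checked on the same arrays. Each of the 6 autopod mesenchyme markers (Prrx1, Prrx2, Twist1, Msx1, Hoxd13 and Hoxa13) was tested on the A array, with differences of -0.27 to -0.06 and 0 past the threshold. Among the limb identity genes, Tbx5 was lower and Pitx1 higher in hindlimb on the A array, and Tbx4 higher on the B array, each past the threshold (limma adjusted p of 0.00441, 0.00441 and 0.000167), which matches the labels. On the A array Tbx4 was also higher in hindlimb (1.33) but just missed the threshold (limma adjusted p = 0.0514). Melanoblast markers (4 of 5 tested) summed to 766 to 800 in forelimb and 777 to 932 in hindlimb.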

How the data were processed

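Per the labels, RNA of 6 wild-type autopod samples was hybridised to MOE430 A and B GeneChips, and the deposited values are MAS5.0 signals, intensities on a linear scale (forelimb 11 lacks this note for its A array). The scanner and detection calls were not used here. The authors had scaled each design to 1 target, with a 2% trimmed mean of 350.1 on A arrays and 70.0 on B arrays. Each array was rescaled to 500, a factor of 1.43 on A and 7.14 on B, which stretches dim B signals, so levels were not compared between designs. Levels of different probe sets were not compared by any test, though list sums add their signals and dim ones are named. Symbols came from the platform annotation, updated by gene identifier with a RefSeq table (GRCm38.p6); no probe set naming a member carried a second symbol. Control probe sets (64 per design) and those under the filter were left out, leaving 15338 (A) and 17145 (B). Limbs were compared within a design by limma 3.58.1 (R 4.3.3, lmFit, eBayes with trend, two-sided, adjusted p under 0.05), without a block. The fit was also run on simulated data whose noise came from limma's own variance prior, so that run could not test whether this noise model holds. Probe sets under the filter got exact two-sided permutation tests (SciPy 1.17.1). Precision is limited by 3 arrays per limb and design: the median SE of tested probe sets was 0.16 (A) and 0.23 (B), and of tested members 0.205 and 0.28.

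The members, the lists and the tests were chosen with earlier results of these data known. All member probe sets were named; from the pathway and differentiated muscle lists, those of smallest p in each direction, up to 3, by the brightest tested probe set per gene; and the 5 genes nearest in pattern. Values of r and list sums are descriptions. The alternatives changed the pseudocount (1 or 100), the filter (none, or 200), the scaling (quantile, or none), the fit (trend off, array weights, or consecutive sample numbers as a block) and the samples (each left out once). Figures were drawn with matplotlib 3.10.9 (Python 3.11.15). Promoter windows were found for 7 of the 10 genes.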

Additional observations from a re-analysis of the deposited data

How the results depend on the processing

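Under all 15 alternatives run on each design, 0 member probe sets passed the threshold (0 on A, 0 on B), so no call was gained; the lowest adjusted p of any tested member was 0.231 (Mef2c 1451506_at without hindlimb 12). Apart from leaving out samples, 117 of 118 differences of tested members kept their sign. The exception was Hgf 1425379_at, which turned to -0.011 with array weights. With a sample left out, 84 of 90 kept it. The 6 that turned belonged to values near 0: Lbx1 1422323_a_at ran from -0.46 to 0.28, Hgf 1425379_at from -0.03 to 0.13 and Myod1 1418420_at from -0.20 to 0.014. The Mef2c probe sets ran from -0.94 to -0.17, Hgf 1442884_at from 0.66 to 1.11 and Met 1434447_at from 0.41 to 0.83. The differentiated muscle list's median ran from -0.35 to -0.11, an alternative chosen after seeing the data, as were the values of single muscle and pathway genes without a sample. Fewer members could be tested under stricter filters: 4 and 2 (A and B) at 200, and 8 and 1 with values as deposited, where Hgf 1442884_at was not tested. A replicate block of consecutive sample numbers (11 with 12, 13 with 14, 25 with 26) is not supported by the labels. The deviations of such samples correlated at 0.08 to 0.21 (A) and 0.00 to 0.05 (B). Other pairs of a forelimb and a hindlimb sample had -0.15 to 0.06 (A) and -0.06 to 0.02 (B). On the A array each consecutive pair was thus above every other pair, so the main fit, without a block, may leave out a pairing. With the block 0 members passed (lowest limma adjusted p = 0.409), while the calls over all probe sets went from 5 to 8 and from 2 to 4. Dim signals limit what can be said of Pax3, Pax7, Myf5 and Met on the A array, where no detection calls were used.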

Other observations

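Mef2c was also read by consecutive sample numbers. Taking hindlimb 12 against forelimb 11, 14 against 13 and 26 against 25 on the 5 Mef2c probe sets, the hindlimb sample was lower in 13 of 15 comparisons, with log2 differences from -1.25 to 0.21. The exceptions were 0.21 for 12 against 11 on 1451506_at and 0.00 for 26 against 25 on 1451507_at. The labels do not say that these numbers pair samples, the numbers were compared after the values were seen, and the 5 probe sets read 1 gene. These values are a description with no test.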
